A study of Arabidopsis thaliana with 6 samples.

Results

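Class III peroxidases are secreted plant heme enzymes encoded by a large gene family, and 60 of these genes in Arabidopsis thaliana are described here, of 23022 genes listed in at least 1 library. The 60 were chosen by gene ID as a list of the family, and all of them matched protein-coding genes of the RefSeq annotation. The family was itself selected on earlier results of the comparison of 17ab with WT in these libraries, so its values in that comparison are a description and no independent evidence. No threshold on a measured value was found in the list, and 3 of its members (AT2G18140, AT2G39040 and AT4G17690) were listed in no library. The list is not the whole family. Of 13 further class III peroxidase genes, 8 were listed, and the most abundant of them, AT3G17070, had 15.22, 15.67 and 17.44 FPKM (read counts scaled by transcript length and library size) in the 17ab libraries and 14.74, 13.05 and 14.39 FPKM in the WT libraries. The only other one tested, AT4G25980 (PRX43), was lower in every 17ab library, at 0.5, 1 and 0.99 FPKM in 17ab against 1.69, 2.36 and 2.26 FPKM in WT.

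Messenger RNA was sequenced from seedlings of the mutant 17ab (3 libraries) and of wild type, WT (3 libraries), all harvested after 10 days on vertical plates with half-strength medium and chosen for similar size. The labels give no stress treatment, and they name neither the genes mutated in 17ab nor the accession. They do not say whether replicates came from separate plates, and every p-value then reflects only how far these libraries vary, in part perhaps for technical reasons. Expected counts (estimated reads per gene) summed to 6261789 to 6292461 per 17ab library and 5968854 to 6198230 per WT library. FPKM values are given as the authors deposited them. In the bulk RNA of seedlings, a change in the number of cells of a type and a change in RNA per cell cannot be told apart. The 13 genes listed as root tissue markers were uneven, and whether each marks root alone was not tested. Of these, 8, among them PIN2, WOX5 and PLT1, reached at most 1.17 FPKM in any library, while the other 5 (SCR, PHO1, GL2, AKT1 and SHR) lay between 7.05 and 18.39 FPKM in the 17ab libraries and between 4.82 and 20.21 FPKM in the WT libraries. By comparison, the 10 leaf photosynthesis markers summed to 24044.8 to 26472.3 FPKM in 17ab and 25219.8 to 30460.4 FPKM in WT. Of these 10, 3 had a higher mean in 17ab. All 10 were tested, 0 rose and 1, CA1, fell, against 6.51% of all genes tested. CA1 fell by 0.31 on the log2 scale (edgeR adjusted p = 0.02924), a call lost in 9 of 16 alternative fits. At an unadjusted p under 0.05 (edgeR) 5 were lower, and DESeq2 called 2 lower.

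Class III peroxidases act in the cell wall and the vacuole. They use hydrogen peroxide to oxidise phenolic compounds, which couples monolignols into lignin and cross-links wall polymers, and they can also generate hydrogen peroxide, as in the oxidative burst that follows the perception of microbes. Single members are known from the Casparian strip of the root endodermis, from root hairs and from lignifying vessels and fibres, and many members are far more abundant in roots than in shoots.

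The largest part of the difference between the genotypes came from 3 genes, PRXR1 (AT4G21960), PRXCB (AT3G49120, also PRX34) and PRX71 (AT5G64120), and PRXCB had a larger fold change than its near copy PRXCA (AT3G49110, also PRX33). The 250 bases before the annotated start of PRXR1, PRXCA and PRXCB are shown because these genes carry the results below and because the coding sequences of PRXCA and PRXCB are 90.4% identical over 1065 aligned positions while their upstream windows are not. The sequences are RefSeq's (TAIR10.1, a release of the assembly other than the TAIR10 that the submitters name), read 5′ to 3′ on the strand of the gene, which is the minus strand of chromosome 4 for PRXR1 and the plus strand of chromosome 3 for PRXCA and PRXCB. Capitals mark TTGAC, the core of the W-box bound by WRKY factors, on either strand.
PRXR1: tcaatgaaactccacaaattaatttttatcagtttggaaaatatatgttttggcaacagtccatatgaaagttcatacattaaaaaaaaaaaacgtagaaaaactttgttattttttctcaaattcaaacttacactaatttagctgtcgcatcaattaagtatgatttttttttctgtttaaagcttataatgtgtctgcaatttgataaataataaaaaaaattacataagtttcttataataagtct
PRXCA: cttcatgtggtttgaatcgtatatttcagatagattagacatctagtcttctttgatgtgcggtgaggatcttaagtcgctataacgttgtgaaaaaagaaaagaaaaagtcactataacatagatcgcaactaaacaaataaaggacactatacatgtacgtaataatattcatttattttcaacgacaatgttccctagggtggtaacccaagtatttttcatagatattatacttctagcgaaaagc
PRXCB: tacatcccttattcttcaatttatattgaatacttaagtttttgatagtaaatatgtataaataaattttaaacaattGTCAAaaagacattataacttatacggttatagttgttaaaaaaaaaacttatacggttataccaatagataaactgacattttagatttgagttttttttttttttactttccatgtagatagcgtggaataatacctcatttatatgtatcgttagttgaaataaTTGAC
The window of PRXCB held 2 W-box cores and those of PRXCA and PRXR1 held 0. PRXCA and PRXCB were 49.5% identical in these windows (global alignment, 285 aligned columns), against 51.6% for the unrelated pair PRXR1 and PRXCA. Among all 60 members 24 (40.0%) had at least 1 W-box core in this window, against 44.9% of 27437 protein-coding genes with a window of the same length. The core was present for 7 of the 17 members that rose and 7 of the 18 tested members that did not pass the test. Other motifs searched on both strands were ACGTG, the core of abscisic acid response elements (18 of 60 members, against 22.9% of all windows), GNATATNC, the site of phosphate starvation regulators (2 members, 3.3%, against 5.5%), and ERSE-I, an ER stress element (0 members against 0.7%). TTGAC and ACGTG can overlap by 2 bases.

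The family was more abundant in 17ab seedlings. Its summed level was 2683.8, 2399.5 and 2539.3 FPKM in the 17ab libraries, against 1525.0, 1611.1 and 1444.6 FPKM in the WT libraries. All 17ab libraries lay above all WT libraries. The means were 2540.9 ± 142.2 FPKM in 17ab and 1526.9 ± 83.3 FPKM in WT (SD, n = 3 each), a ratio of 1.66, and no test was made on this sum. The family held 0.387% ± 0.0216 of all FPKM in 17ab and 0.229% ± 0.0134 in WT (SD, n = 3 each). Without PRXR1 the ratio of the sums was 1.58, and without the 5 members most abundant over all 6 libraries it was 1.39.

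A few members made up most of the family transcript. PRXR1 alone held 54.4%, 62.6% and 57.6% of the summed FPKM in the 17ab libraries, and 55.0%, 54.4% and 58.0% in the WT libraries. The shares of the 2 genotypes overlapped. Ranked by the mean over all 6 libraries, the 5 most abundant members (PRXR1, PRX71, AT1G71695, PRXCB and AT4G37520) held 82.6% ± 1.48 in 17ab and 79.1% ± 1.05 in WT. In WT alone AT2G37130 ranked above PRXCB, and the 5 members most abundant in WT held 80.3% ± 0.538 there. The 10 most abundant over all libraries held 90.9% ± 1.24 in 17ab and 90.4% ± 0.053 in WT (SD, n = 3 each). Within the top 5 the weights moved. PRXCB held 7.32%, 5.56% and 6.67% in the 17ab libraries, against 3.53%, 3.42% and 3.21% in the WT libraries. AT1G71695 held 4.57%, 4.85% and 4.64% in 17ab, against 7.68%, 7.87% and 7.95% in WT. In both of these genes the 2 genotypes did not overlap. The family's gain of 1013.9 FPKM in 17ab over WT was made up by PRXR1 to 61.5%, by PRXCB to 11.3% and by PRX71 to 11.3%, together 84.1%.

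**Figure D1:**
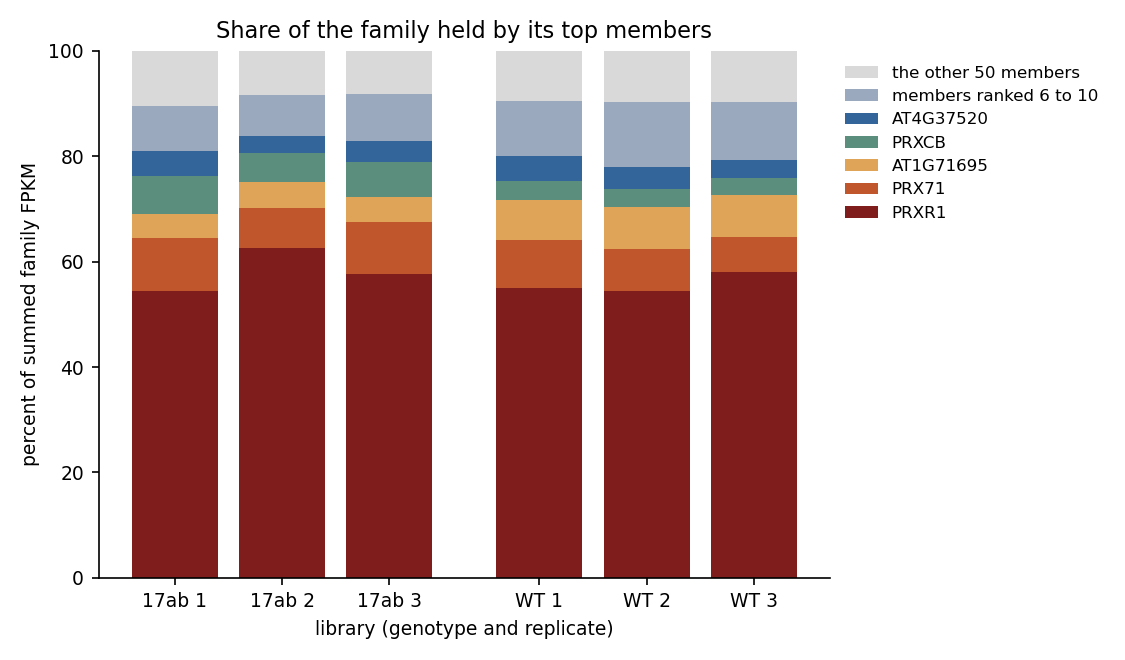
Stacked bars give the percent of the summed class III peroxidase FPKM held by the 5 most abundant members, by the members ranked 6 to 10 and by the other 50, in each of the 3 libraries of 17ab and 3 of WT. PRXR1 fills more than 54% of every bar, and the PRXCB segment is wider in each 17ab library (5.56% to 7.32%) than in each WT library (3.21% to 3.53%).

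Of the 60 members, 35 had enough reads to be tested, and 17 of these rose in 17ab at an adjusted p under 0.05 (edgeR quasi-likelihood test, Benjamini-Hochberg adjustment over all 17854 genes tested). Among all genes tested 7.57% (1352) rose and 6.51% (1163) fell, and with an offset for GC content and length 1109 rose and 1438 fell, while the 17 members kept their calls. No member fell by the edgeR test, while 2 were lower at an unadjusted p under 0.05 and DESeq2 and limma-trend called 0 lower. Outside the list, PRX43 differed by -1.35 ± 0.42 (SE) on the log2 scale, just short of the threshold (edgeR adjusted p = 0.05008). The median log2 fold change was 0.63 over the 35 tested members and -0.002 over all genes tested. These figures cover only members that passed the filter on low counts, and 9 of the 35, of which 6 rose, passed it only through their level in 17ab. The 6 were AT2G18150, AT2G38390, PRX25, AT4G08780, AT4G30170 and AT5G17820. Of the 17 members that rose, 11 rose at least 2-fold (1.92% of all genes tested did). In all 17 the FPKM of the 2 genotypes did not overlap, which was so in the higher direction for 20 of the 35 tested members and 18.2% of all genes tested. Leaving out 1 library gave 12 to 21 risen members, 12 of them without 17ab replicate 1. In each of those 6 fits all 17 stayed above 0. The calls of 11 of the 17 held in all 6, and those of AT2G38390, PRX25, AT5G17820, AT5G58390, PRXCA and AT4G37520 were lost in at least 1. DESeq2 kept 13 of the 17, without PRX25, AT4G37520, AT5G17820 and AT5G58390, and limma-trend kept 13 or 14.

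**Figure D2:**
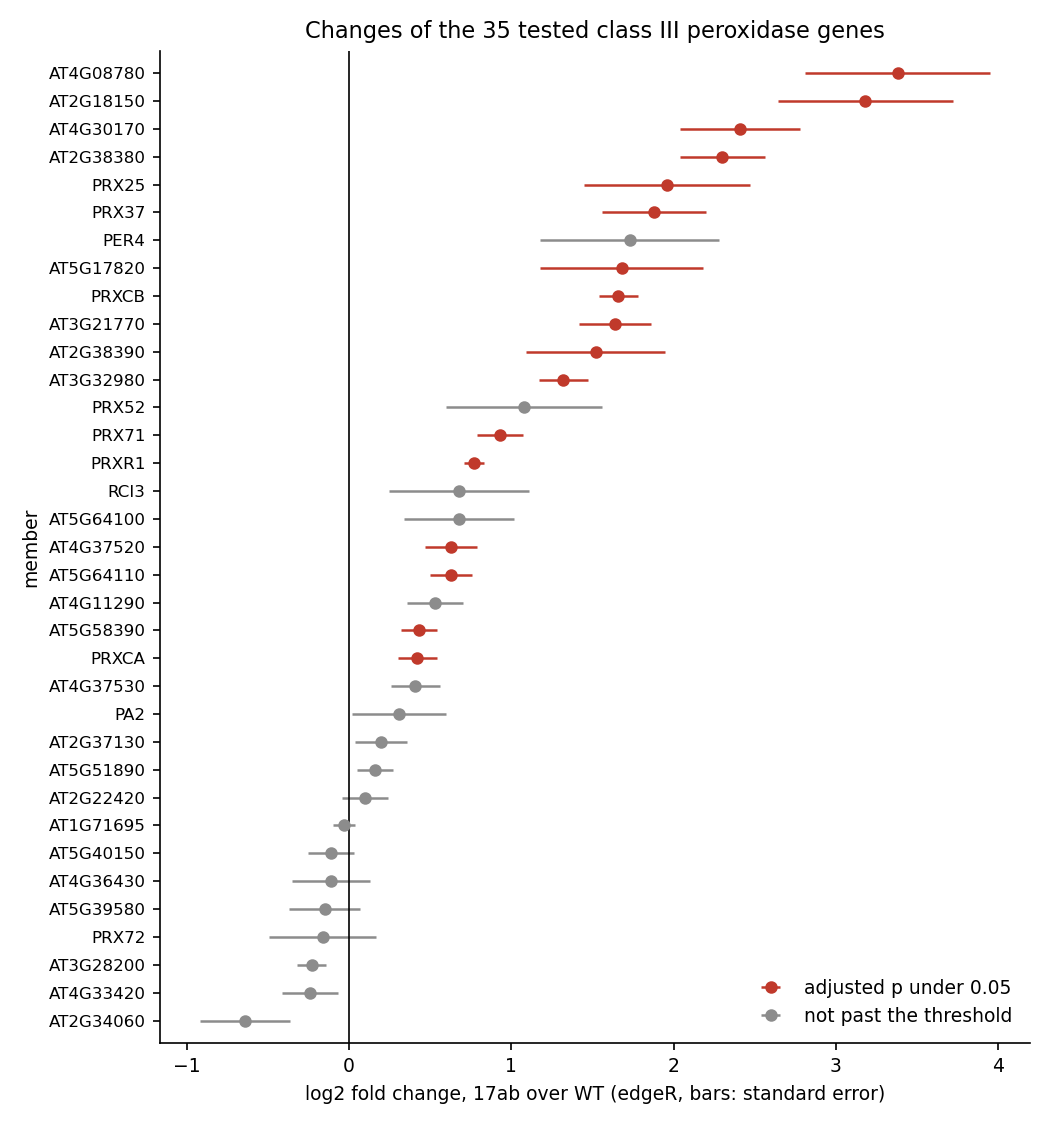
Points are log2 fold changes of 17ab over WT from edgeR for the 35 tested members, bars their standard errors, with the members at an adjusted p under 0.05 in red and the others in grey. The 17 red points run from 0.42 for PRXCA to 3.38 for AT4G08780, and the lowest grey point is AT2G34060 at -0.64.

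PRXR1 was the most abundant member in every library. It had 1458.88, 1501.27 and 1463.3 FPKM in the 17ab libraries, against 839.2, 875.58 and 838.02 FPKM in the WT libraries. The libraries of each genotype agreed within a few percent, and the gap between the genotypes was far wider than either spread. The log2 fold change was 0.77 ± 0.06 (SE, edgeR adjusted p = 9.858e-06). PRX71, a peroxidase of lignifying tissue that is also known for limiting cell size, was second in both genotypes, with 269.56, 182.85 and 253.12 FPKM in the 17ab libraries and 137.09, 130.35 and 95.4 FPKM in the WT libraries. The 17ab libraries were all higher, with replicate 2 the lowest of them. Its log2 fold change was 0.93 ± 0.14 (edgeR adjusted p = 0.001073). In 17ab the levels of PRX71 and PRXCB, neighbours in rank, overlapped between libraries, as did those of PRX71 and AT1G71695 in WT.

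Not every abundant member took part. AT1G71695 had 122.71, 116.37 and 117.81 FPKM in the 17ab libraries and 117.07, 126.83 and 114.81 FPKM in the WT libraries. The genotypes overlapped, and the log2 fold change was -0.03 ± 0.07 (edgeR adjusted p = 0.7958). AT2G37130 had 87.73, 57.44 and 100.16 FPKM in the 17ab libraries, against 60.86, 83.04 and 66.69 FPKM in the WT libraries, with a wide spread in 17ab and a difference of 0.20 ± 0.16 on the log2 scale (edgeR adjusted p = 0.4718). AT3G28200 was the most abundant member whose 17ab libraries all lay below WT, at 24.47, 24.55 and 26.65 FPKM in 17ab against 27.1, 29.32 and 30.98 FPKM in WT. On the log2 scale the difference was -0.23 ± 0.09, not past the threshold (edgeR adjusted p = 0.09153). The other member with this pattern was AT2G34060, at 5.07, 4.83 and 2.01 FPKM in 17ab and 6.74, 5.26 and 6.21 FPKM in WT (edgeR adjusted p = 0.1563). The pattern thus held for 2 of the 35 tested members, against 12.9% of all genes tested. AT5G39580 overlapped between the genotypes, with a log2 fold change of -0.15 ± 0.22.

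**Figure D3:**
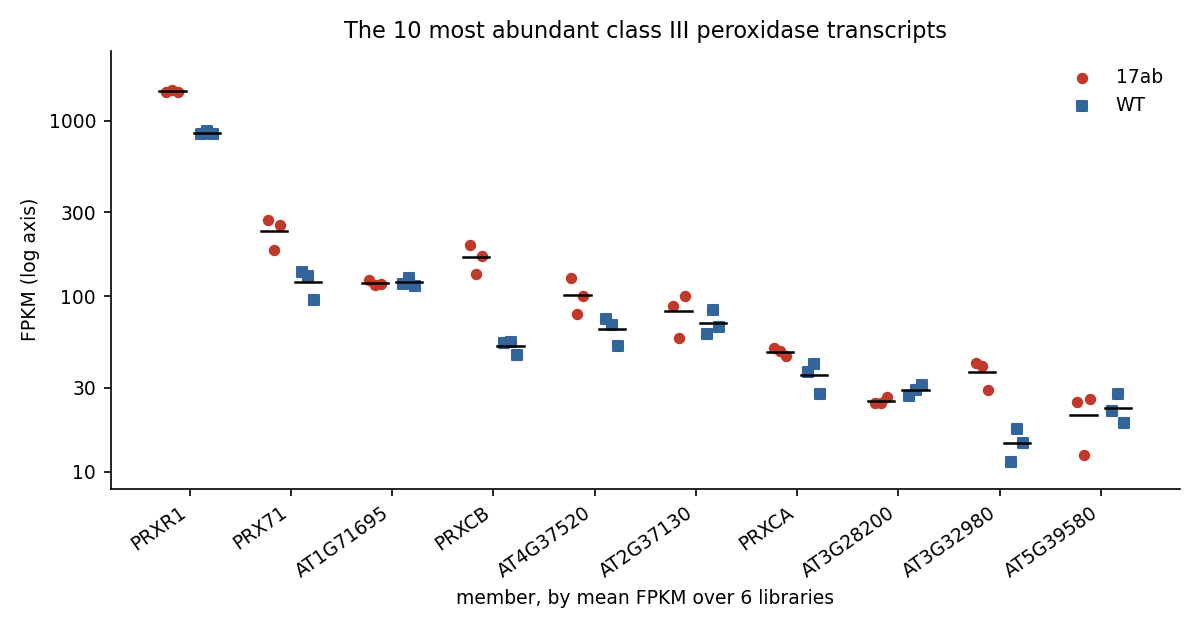
FPKM on a log axis of the 10 most abundant members in the 3 libraries of 17ab (red circles) and 3 of WT (blue squares), with black lines at the group means. PRXR1 lies near 1474.5 FPKM in 17ab and 850.9 FPKM in WT, PRXCB near 166.4 and 51.8 FPKM, and AT1G71695 near 119.0 and 119.6 FPKM.

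PRXCA and PRXCB are the peroxidases known for the apoplastic oxidative burst in response to fungal and bacterial elicitors. They lie on the same strand of chromosome 3, with 1 short annotated gene between them. PRXCB had 196.43, 133.48 and 169.43 FPKM in the 17ab libraries, against 53.8, 55.07 and 46.4 FPKM in the WT libraries. Even the lowest 17ab library was more than 2-fold above the highest WT library, and the log2 fold change was 1.66 ± 0.12 (edgeR adjusted p = 4.811e-06). PRXCA had 50.42, 48.57 and 45.31 FPKM in the 17ab libraries, against 36.91, 41.24 and 27.73 FPKM in the WT libraries. Its groups did not overlap either, but its log2 fold change was 0.42 ± 0.12 (edgeR adjusted p = 0.02924), and the call was lost without WT replicate 3, 17ab replicate 1 or 17ab replicate 2. The level of PRXCB over that of PRXCA was 3.90, 2.75 and 3.74 in the 17ab libraries and 1.46, 1.34 and 1.67 in the WT libraries. The log2 ratio differed by 1.21 between 17ab and WT (two-sided exact permutation p = 0.1, the smallest that 3 against 3 allows), a ratio chosen with the values of both genes known. Reads had been divided in part between PRXCA and PRXCB, whose counts were not whole. Their single levels, and the ratio built on them, therefore carry an uncertainty of assignment. Their sum was 182.0 to 246.9 FPKM in 17ab and 74.1 to 96.3 FPKM in WT. AT3G32980 on the same chromosome, 84.2% identical to PRXCB and 83.1% to PRXCA in its coding sequence, had whole counts in every library. It had 41.38, 40 and 29.22 FPKM in the 17ab libraries, against 11.27, 17.58 and 14.56 FPKM in the WT libraries, and rose by 1.32 ± 0.15 on the log2 scale (edgeR adjusted p = 0.0001218).

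**Figure D4:**
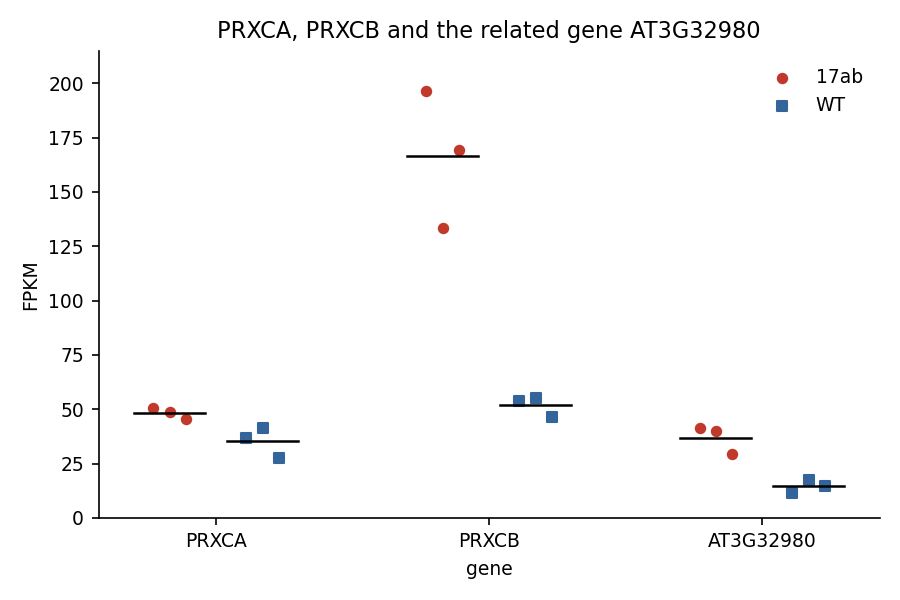
FPKM of PRXCA, PRXCB and AT3G32980 in the 3 libraries of 17ab (red circles) and 3 of WT (blue squares), with black lines at the group means. The means of 17ab and WT lie at 48.1 and 35.3 FPKM for PRXCA, at 166.4 and 51.8 FPKM for PRXCB and at 36.9 and 14.5 FPKM for AT3G32980.

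Other neighbouring copies differed in how many of them rose. AT2G38380 and AT2G38390, with 90.6% identical coding sequences, rose by 2.30 ± 0.26 (edgeR adjusted p = 0.0001231) and 1.52 ± 0.43 (edgeR adjusted p = 0.03145) on the log2 scale. AT2G38380 had 17.02, 9.68 and 9.69 FPKM in 17ab and 1.75, 2.41 and 3.1 FPKM in WT. PRX37 (AT4G08770), linked to phenolic cross-linking in walls and to limited growth, and its neighbour AT4G08780, 93.8% identical, rose by 1.88 ± 0.32 (edgeR adjusted p = 0.001714) and 3.38 ± 0.57 (edgeR adjusted p = 0.001729). PRX37 had 14.95, 7.94 and 8.97 FPKM in 17ab, against 2.21, 4.49 and 1.64 FPKM in WT. AT4G08780 had 5, 2.07 and 2.27 FPKM in 17ab and 0.42, 0.16 and 0.34 FPKM in WT. In both pairs 17ab replicate 1 was the highest library, and reads were divided in part between copies. Of AT4G37520 and AT4G37530, 92.4% identical, AT4G37520 rose by 0.63 ± 0.16 (edgeR adjusted p = 0.01598), with 125.97, 79.37 and 99.93 FPKM in 17ab and 73.91, 68.82 and 51.67 FPKM in WT. The value of AT4G37530 was 0.41 ± 0.15 (edgeR adjusted p = 0.08023). Counts of AT4G37520 and AT4G37530 were not whole either, so the contrast between them carries an uncertainty of assignment. In the row of 3 genes that ends with PRX71, AT5G64110 rose by 0.63 ± 0.13 (edgeR adjusted p = 0.005167). AT5G64100, known from root hair growth in the cold, had 17.94, 6.53 and 13.57 FPKM in 17ab and 9.95, 9.55 and 3.73 FPKM in WT, which overlapped (edgeR adjusted p = 0.2191). Of AT2G18140 and AT2G18150, 91.7% identical, the first was listed in no library and the second rose by 3.18 ± 0.54 (edgeR adjusted p = 0.001796), at 2.84, 2.72 and 1.25 FPKM in 17ab and 0.35, 0.23 and 0.12 FPKM in WT.

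Some single members of low level in WT were several times higher in 17ab. AT4G30170 had 18.78, 8.15 and 8.71 FPKM in the 17ab libraries, against 2.12, 3.15 and 1.23 FPKM in the WT libraries, and rose by 2.41 ± 0.37 on the log2 scale (edgeR adjusted p = 0.001013). AT3G21770 had 16.42, 11.11 and 10.52 FPKM in 17ab and 3.17, 4.59 and 4.22 FPKM in WT, and rose by 1.64 ± 0.22 on the log2 scale (edgeR adjusted p = 0.0003295). In both genes 17ab replicate 1 was highest and the genotypes did not overlap. AT5G17820 rose by 1.68 ± 0.50 (edgeR adjusted p = 0.03901), from few reads (26, 13 and 12 counts in 17ab, and 3, 9 and 3 in WT). AT4G30170 and AT5G17820 passed the filter on low counts only through their level in 17ab. AT5G58390 was not of low level in WT and rose less, by 0.43 ± 0.11 (edgeR adjusted p = 0.01749). It had 21.33 to 26.72 FPKM in 17ab and 17.19 to 18.19 FPKM in WT.

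By known role, both members of the oxidative burst rose, and so did 13 of the 22 tested members with another or no assigned role. These counts stand beside 17 of all 35 tested members and 7.57% of all genes tested. The call of PRXCA, 1 of the oxidative burst members, was lost in some fits that left out 1 library and with limma-trend. The other role groups are small, and no test compared them. Of 8 members known from lignifying tissue 7 were tested and 2 rose, PRX71 and PRX25 (AT2G41480), the last by 1.96 ± 0.51 at 25, 13 and 12 counts in 17ab and 2, 3 and 7 in WT (edgeR adjusted p = 0.02076). PER4 lay just outside the threshold at 1.73 ± 0.55 (edgeR adjusted p = 0.05336), with 1.64, 1.39 and 1.9 FPKM in 17ab and 1.03, 0.26 and 0.13 FPKM in WT. PRX52, of the fibres of the stem, overlapped between the genotypes (log2 fold change 1.08 ± 0.48, edgeR adjusted p = 0.1597). AT2G22420, AT5G51890 and PRX72 (AT5G66390) had log2 fold changes of 0.10 ± 0.14, 0.16 ± 0.11 and -0.16 ± 0.33. Of the 4 members known from the Casparian strip, AT4G11290 and RCI3 were tested and did not pass (edgeR adjusted p = 0.05724 and 0.3323). PER64, which polymerises lignin there, had 4, 12 and 3 counts in 17ab and 5, 8 and 6 in WT, and AT1G44970 had 1 count in each 17ab library and at most 2 in a WT library. Of the 5 members known from root hairs, AT5G39580 and AT5G64100 were tested and did not pass. RHS18 had 5, 3 and 1 counts in 17ab and was at 0 in all 3 WT libraries. AT4G26010 had 13, 8 and 11 counts in 17ab and 0, 4 and 5 in WT. AT1G05240 and its neighbour PRX2 (AT1G05250) have identical coding sequences of 978 bases, and reads from these stretches fit both. PRX2, one of the lignin members, was given 16.52, 24 and 4.52 counts in 17ab and 0, 2 and 4 in WT.

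The 25 untested members were scarce, at no more than 3.47 FPKM in any library. Of these, 17 had a higher mean in 17ab, 4 a lower one, and 5 were at 0 in every WT library while listed in 17ab. These counts were not set against a share over all scarce genes, so they are no result about the members. The 17ab libraries were all deeper, and they listed 21259 to 21429 genes, against 21003 to 21053 in WT. The summed level of the untested members was 19.2, 16.4 and 8.06 FPKM in the 17ab libraries, against 5.02, 4.89 and 5.69 FPKM in the WT libraries. All 17ab libraries were higher, and replicate 3 was closest to WT. The most abundant of them in 17ab, AT5G06730, neighbour of PA2, had 31, 17 and 10 counts in 17ab and 2, 2 and 4 in WT, while PA2 itself was at 0.31 ± 0.29 (edgeR adjusted p = 0.5405).

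Some of these scarce members are known from root hairs or the Casparian strip, so the levels of root markers are given beside them. The 15 root hair markers summed to 13.2, 6.36 and 5.83 FPKM in the 17ab libraries and to 1.49, 2.45 and 1.97 FPKM in the WT libraries, with 17ab replicate 1 highest, as for the peroxidases above. Only LRX2 of the list had enough reads to be tested, with a log2 fold change of -0.44 ± 0.41 that missed the threshold (edgeR adjusted p = 0.5378). The main edgeR fit therefore called 0 of the 15, also at an unadjusted p under 0.05, and DESeq2 called 1 higher. With no filter on low counts edgeR called 4 higher and 0 lower. Limma-trend on log2(FPKM + 1) without a filter called 2 higher and 0 lower. Fits that left out 1 library called 0 to 2 higher. Of these 15 markers 14 had a higher mean in 17ab, and 8, among them EXPA18, COBL9 and PRP1, were at 0 in every WT library. Neither count was set against a share over all scarce genes, and the WT libraries listed fewer genes at large. The highest value of any root hair marker was 3.01 FPKM in 17ab and 1.15 FPKM in WT. Of 14 suberin markers 7 were tested and CYP86A1, a fatty acid hydroxylase, and ASFT, a feruloyl transferase, rose, against 7.57% of all genes tested (1.82 ± 0.36 and 0.85 ± 0.23 on the log2 scale, edgeR adjusted p = 0.004625 and 0.02827). The call of ASFT was lost in 6 of 16 alternative fits, 4 of them with 1 library left out. The suberin list summed to 91.4 to 106.4 FPKM in 17ab and 87.5 to 94.6 FPKM in WT. Most of this sum was KCS20, at 66.8 to 76.54 FPKM in 17ab and 65.71 to 74.14 FPKM in WT (log2 fold change -0.01 ± 0.08). The overlap of the sums therefore says little about the other suberin markers. Of the 14, 11 had a higher mean in 17ab, while FAR1 and ABCG2 had a lower one and MYB41 was listed in no library. Of the 13 genes listed as root tissue markers 5 were tested. Whether these 5 mark root alone was not tested, and their changes are given as those of single genes. The potassium channel AKT1 rose by 0.90 ± 0.11 and the phosphate exporter PHO1 by 0.53 ± 0.13. GL2 fell by 0.35 on the log2 scale (edgeR adjusted p = 0.02784), a call lost in 9 of 16 alternative fits, with DESeq2 and 4 fits that left out 1 library among them. That of PHO1 was lost in 3. The sum of the list was 56.7 to 62.2 FPKM in 17ab and 50.2 to 52.55 FPKM in WT. The sums of the 8 Casparian strip markers overlapped, at 10.1 to 11.95 FPKM in 17ab and 8.85 to 12.7 FPKM in WT. Most of this sum was ESB1 and SGN3, the only 2 tested. Of the scarce ones, CASP1 was higher in every 17ab library (1.07 to 1.44 FPKM, against 0.19 to 0.73 FPKM in WT). CASP2 was lower in every 17ab library (0.16 to 0.49 FPKM, against 0.51 to 1.15 FPKM in WT). The sums of the 7 xylem markers overlapped too, at 58.2 to 60.95 FPKM in 17ab and 57.0 to 69.0 FPKM in WT. The part of these root markers in the rise of the peroxidases was not tested. With 17ab replicate 1 left out, 5 of the 17 calls were lost (AT2G38390, PRX25, PRXCA, AT5G17820 and AT5G58390). The log2 fold change was then 0.97 for AT2G38390, against 1.52 with all libraries, 1.93 for AT4G30170, against 2.41, and 0.78 for PRXR1, against 0.77.

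**Figure D5:**
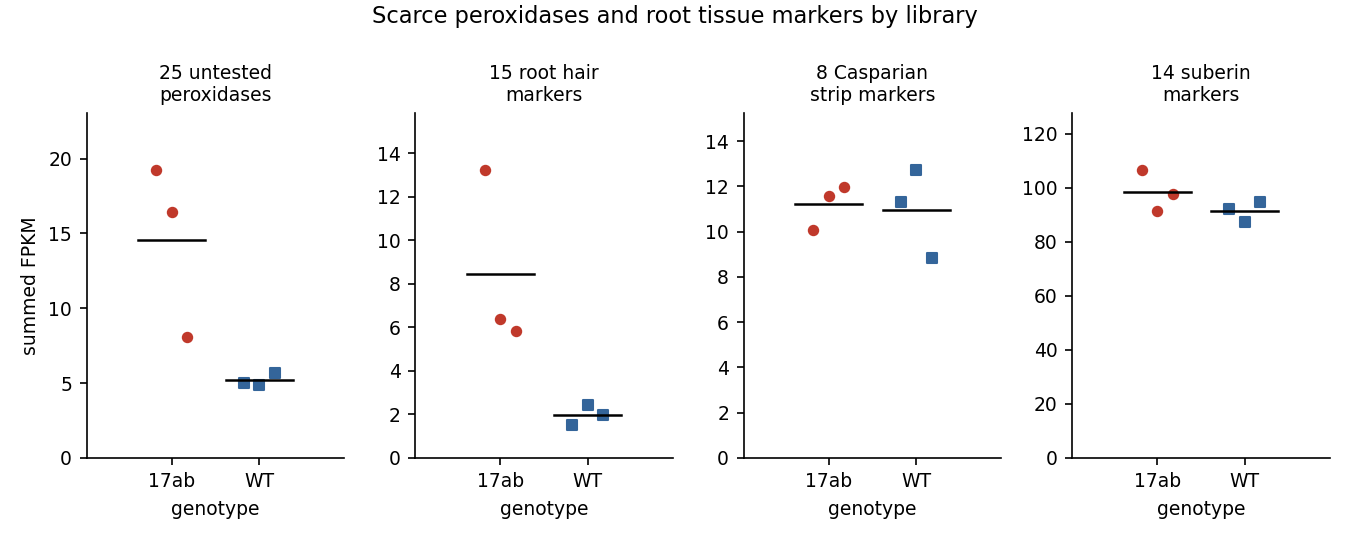
Summed FPKM of the 25 untested peroxidases, of 15 root hair markers, of 8 Casparian strip markers and of 14 suberin markers in the 3 libraries of 17ab (red circles) and 3 of WT (blue squares), with black lines at the group means and a separate axis from 0 in each panel. The sums of the untested peroxidases and of the root hair markers are higher in every 17ab library. Those of the Casparian strip markers, mostly ESB1 and SGN3, overlap between the genotypes.

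Genes that supply the enzymes with substrate are given against the shares over all genes tested, 7.57% higher and 6.51% lower. Of 10 NADPH oxidases, which make the superoxide that turns into hydrogen peroxide, 3 were tested and RBOHD, the oxidase of the immune burst, rose. It had a mean of 39.6 ± 2.18 FPKM in 17ab and 26.7 ± 1.80 FPKM in WT (SD, n = 3 each), 0.54 ± 0.08 higher on the log2 scale (edgeR adjusted p = 0.0006541). Of 19 tested genes of monolignol synthesis 3 rose and 1 fell, with a median log2 fold change of 0.16. The risen genes were 4CL2, a CoA ligase, F5H1, the hydroxylase of syringyl lignin, and CAD5, an alcohol dehydrogenase, at 0.73 ± 0.13, 0.72 ± 0.08 and 0.40 ± 0.11, and CAD4, the partner of CAD5, fell by 0.31 (edgeR adjusted p = 0.03369). The call of CAD4 was lost in 8 of 16 alternative fits, among them the replicate block, limma-trend and 4 fits that left out 1 library, and that of CAD5 in 4. Laccases, which also couple monolignols, went both ways. Of 10 tested laccases 2 rose and 3 fell, with a median of -0.24. LAC4, of the stem vessels and fibres, had 4.75 ± 0.256 FPKM in 17ab and 7.33 ± 0.329 FPKM in WT (SD, n = 3 each), and fell by 0.65 ± 0.14 on the log2 scale (edgeR adjusted p = 0.006573). LAC2 and LAC8 fell by 2.80 and 0.81 on the log2 scale, and LAC7 and LAC13 rose by 2.11 ± 0.42 and 1.14 ± 0.31. The call of LAC13 was lost in 10 of 15 alternative fits, those of the other 4 laccases in 0.

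Among enzymes that remove hydrogen peroxide inside the cell, only the rise of CAT3 held in all 16 alternative fits. Of 17 tested catalases, ascorbate peroxidases and glutathione peroxidases 2 rose and 2 fell, with a median of -0.16. The catalase CAT3 had 2437.7 ± 111.6 FPKM in 17ab and 1228.0 ± 85.9 FPKM in WT (SD, n = 3 each) and rose by 0.96 ± 0.07 (edgeR adjusted p = 5.503e-06), while the leaf catalase CAT2 fell by 0.39. GPX6 rose by 0.27 ± 0.08 and the plastid enzyme GPX1 fell by 0.34. The call of CAT2 was lost in 8 of 16 alternative fits, that of GPX1 in 9 and that of GPX6 in 10, each in 4 or 5 of the 6 that left out 1 library. Of the 9 tested genes of pattern-triggered defence 5 rose, where 7.57% of all genes tested did, and the median log2 fold change was 0.88. The flagellin-induced receptor kinase gene FRK1 rose by 1.47 ± 0.17, PAD3 of camalexin synthesis by 1.44 ± 0.23 and CYP81F2 of indole glucosinolate metabolism by 1.33 ± 0.16. The call of PR1 (edgeR adjusted p = 0.04493) was lost in 7 of 16 alternative fits, 4 of them with 1 library left out. Those of FRK1, PAD3, CYP81F2 and WRKY33 were lost in 0. WRKY40, WRKY53, PR5 and PR2 did not pass, and PR2 was at -0.65 ± 0.55. Of the regulators, KUA1, known to repress peroxidase genes, was at 0.04 below WT on the log2 scale and did not pass the test (edgeR adjusted p = 0.8122), and UPB1, known for the same in roots, was too scarce to be tested.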

How the data were processed

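Messenger RNA of seedlings was sequenced in 3 libraries of 17ab and 3 of WT, per the labels. The deposited tables hold 1 expected count and 1 FPKM value per gene, per the file headers, and a length in bases. STAR 2.4.0, HTSeq 0.6.0, DESeq2 and TAIR10 are named in the submitters' processing notes with no role. The authors deposited expected counts whose program, and whose use of strand, the sources used here do not give. FPKM values the authors deposited were used as they stand. A gene missing from a table was taken as 0. Each table held more than 91.3% whole counts (tolerance 1e-06). The floor of 3 counts is 0.477 to 0.503 CPM per library, which covers counting error only. No pair of libraries was identical.

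Expected counts were rounded and tested with edgeR 4.0.16 (R 4.3.3; quasi-likelihood test, TMM normalization, default expression filter with a minimum count of 10, genotype as the single term), tested on simulated data, with Benjamini-Hochberg adjustment over 17854 genes and a threshold of 0.05. Standard errors are the absolute log2 fold change over the square root of F. Alternatives were DESeq2 1.42.0, limma 3.58.1 on log2(FPKM + 1) and log2(FPKM + 0.1), other filters and size factors, a GC and length offset (loess span 0.5), the replicate block and each library left out. Same-numbered libraries did not deviate together (correlation -0.108 to -0.002), so replicate numbers were not taken as pairs. Names, gene order and sequences come from RefSeq TAIR10.1 (Biopython 1.88), with no coordinates given. The members and the 13 gene lists were chosen with earlier results of these data known. Members named were the 10 most abundant, all that passed, their neighbouring copies and members of the role groups, and listed genes named were up to 3 per direction that passed, with further ones as said in the text.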

Additional observations from a re-analysis of the deposited data

How the results depend on the processing

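The number of risen peroxidases was 17 with DESeq2 size factors and with the GC and length offset, 22 with no filter on low counts, 12 with at least 5 CPM in at least 3 libraries, 16 with the DESeq2 test (13 of the 17 kept), 15 to 16 with limma-trend (13 to 14 of the 17 kept) and 12 to 21 without 1 library, and the number of fallen ones was 0 in each of these fits. Among members whose counts were whole in every library it was 10 of 27 tested. With the replicate block it was 15, losing AT2G38390 and AT5G17820, with or without the offset, although the numbers share no more than a label. Over all genes, the risen numbered 1352 (872 with DESeq2, 882 with the offset and the replicate block, 889 to 1137 without 1 library, lowest without WT replicate 2). The fallen numbered 1163 (727 with DESeq2, 643 to 953 without 1 library, with 682 and 643 without WT replicates 2 and 3). In limma-trend fits they were 770 on log2(FPKM + 1), 726 on log2(FPKM + 0.1) and 630 on log2(FPKM + 1) without a filter. Of the listed pathway and marker genes 17 rose and 8 fell, and the fallen were 4 with the replicate block, 3, 2 and 4 in those limma-trend fits and 3 to 8 without 1 library (3 without WT replicate 1 or 17ab replicate 1, 5 without WT replicate 3). The cause of these losses was not tested. The ratio of the summed family levels ran from 1.62 to 1.71 without 1 library. As shares of summed counts, not per length, PRXR1 held 64.4% in 17ab and 62.2% in WT, the top 5 held 85.1% in 17ab and 82.1% in WT, and the top 10 held 92.6% in 17ab and 92.1% in WT. Ranked within each genotype, which was chosen after seeing the data, the top 5 held 82.6% in 17ab and 80.3% in WT and the top 10 held 91.1% in 17ab and 90.6% in WT. Members with few counts in WT are limited by depth.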
